A study of Mus musculus with 12 samples.

Results

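The 38 ribosome biogenesis genes described here were read by gene symbol from a raw count table of 56350 gene identifiers in mouse bone marrow. Each of the 38 symbols occurred once in the table, and all 38 were among the 17475 genes that had enough counts to be tested. The bone marrow came from 12 mice that all carried the Shp2E76K allele, an activating leukaemia mutation of the phosphatase Shp2, in 1 copy together with LysM-Cre, a Cre recombinase made from the Lyz2 locus in myeloid cells. No group without the mutant allele was analysed here, so every comparison is between treated and untreated mutant mice. The labels give the strain as C57Bl/6J in one field and the background as C57BL/6 in another, and the mice were of both sexes and 12 to 14 weeks old. In groups of 3 they received vehicle, PD-901 (PD0325901, an inhibitor of the kinase MEK, 5 mg/kg by mouth in 20 doses), 5-azacitidine (a nucleoside analogue that is built into nucleic acids and reduces methylation of DNA, 5 mg/kg into the peritoneum in 5 doses) or both agents, over 4 weeks. Whole bone marrow is a mixture of cell types, and in such bulk RNA fewer cells of a type and less RNA per cell cannot be told apart.

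Ribosomes are built in the nucleolus. RNA polymerase I transcribes a long precursor of the ribosomal RNAs, which small nucleolar RNA (snoRNA) complexes modify, the box C/D complexes by methylation of the ribose and the box H/ACA complexes by turning uridine into pseudouridine. Assembly factors then cut and fold the precursor into a small and a large subunit with the help of chaperones and helicases. Dividing progenitor cells of the marrow make many ribosomes, while neutrophils that have finished maturing make few, and the transcription factor Myc is a textbook activator of these genes. The 38 genes comprised 3 nucleolar chaperones or scaffold proteins, 4 proteins of box C/D complexes, 4 of box H/ACA complexes, 2 subunits of RNA polymerase I, 11 factors of small subunit assembly, 12 of large subunit assembly and 2 nucleolar regulators of transcription.

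The genes lay on 17 chromosomes, and 7 of the 38 (18.4%) held at least 1 snoRNA gene within their span. By the same coordinates, deposited with the counts, this held for 263 of 22222 protein-coding genes (1.18%). Together these 7 genes, Nop56, Nop58, Ncl, Wdr43, Gnl3, Tsr1 and Dkc1, held 21 snoRNA genes. RefSeq promoter windows (GRCm38.p6, from 250 bases before to 50 after the start) were found for 34 of the 38 genes. They are described to show what the start regions of the 38 genes share beside their role. Both strands were searched for 4 motifs: the E-box CACGTG that Myc and Max bind, the core CCGGAA of ETS factors, the CCAAT box and the TATA box as TATAAA. The ETS core was present for 16 of 34 genes (47.1%), against 16.66% of all 27025 genes with a window. The E-box was present for 6 of 34 (17.6%), against 8.09% of all genes. Counted in the 250 bases before the start alone, the E-box was found for 1 gene (2.9%), against 6.86% of all genes, so that 5 of the 6 genes had their match only at or after the start. CCAAT was found for 12 of 34 (35.3%, against 41.06%) and TATAAA for 2 (5.9%, against 15.67%). The windows held a median of 21.5 CG dinucleotides, against 7.0 over all windows, and a median GC content of 58.8%, against 52.7%. A match of such short letters is a description of the sequence and not a binding site. The base composition of the windows also differed, and its part in the counts of matches was not tested.

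The 250 bases before the start of 5 genes follow, chosen because none of their bases lies in an annotated exon and because they range from no ETS core to several motifs. Of these genes Dkc1, Nolc1, Gar1 and Noc3l passed the test for the combination and Nop2 did not. They are given 5′ to 3′ on the strand of the gene, with the searched motifs in capitals. The windows of Dkc1 (chrX:75095604-75095853), Nolc1 (chr19:46075597-46075846) and Nop2 (chr6:125131633-125131882) lie on the plus strand, and those of Gar1 (chr3:129831397-129831646) and Noc3l (chr19:38819238-38819487) on the minus strand. Coordinates are those of GRCm38.
Dkc1: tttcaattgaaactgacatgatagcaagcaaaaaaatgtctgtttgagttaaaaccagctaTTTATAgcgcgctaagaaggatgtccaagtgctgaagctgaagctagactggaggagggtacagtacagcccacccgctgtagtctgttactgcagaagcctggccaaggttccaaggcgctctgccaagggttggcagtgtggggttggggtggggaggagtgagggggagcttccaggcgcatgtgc
Nolc1: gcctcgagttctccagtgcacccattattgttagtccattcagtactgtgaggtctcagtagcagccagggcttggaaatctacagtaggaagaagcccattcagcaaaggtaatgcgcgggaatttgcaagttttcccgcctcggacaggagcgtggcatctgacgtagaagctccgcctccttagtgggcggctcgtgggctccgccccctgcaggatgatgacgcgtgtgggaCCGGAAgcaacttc
Gar1: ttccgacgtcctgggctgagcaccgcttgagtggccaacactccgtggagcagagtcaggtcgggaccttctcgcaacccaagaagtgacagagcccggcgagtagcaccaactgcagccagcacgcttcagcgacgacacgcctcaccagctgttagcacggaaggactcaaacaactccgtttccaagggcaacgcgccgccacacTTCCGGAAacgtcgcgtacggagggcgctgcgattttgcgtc
Noc3l: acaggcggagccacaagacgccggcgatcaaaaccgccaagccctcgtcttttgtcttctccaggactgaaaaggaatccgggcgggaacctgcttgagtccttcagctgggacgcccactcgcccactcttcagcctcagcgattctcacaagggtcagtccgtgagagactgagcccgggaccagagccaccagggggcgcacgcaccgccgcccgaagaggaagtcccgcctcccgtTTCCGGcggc
Nop2: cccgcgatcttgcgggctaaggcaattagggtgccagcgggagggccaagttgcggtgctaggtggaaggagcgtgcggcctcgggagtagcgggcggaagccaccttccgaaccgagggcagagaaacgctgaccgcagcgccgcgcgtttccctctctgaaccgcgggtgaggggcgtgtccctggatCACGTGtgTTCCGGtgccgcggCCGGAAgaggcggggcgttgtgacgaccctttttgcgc

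In the Dkc1 window the capitals mark only a TATA box on the opposite strand, 189 bases before the start, and no ETS core. Nolc1 has an ETS core that begins 14 bases before the start. In Gar1 2 cores on opposite strands overlap within TTCCGGAA, which begins 42 bases before the start, and Noc3l has 1 core on the opposite strand at 10 bases. Nop2 carries the only E-box found upstream of a start among the 34 genes, 60 bases before it and followed by 2 ETS cores at 52 and 38 bases. An ETS core was present for 6 of the 17 genes with a window that rose with the combination and for 10 of the 17 that did not pass the test, and an E-box for 2 and 4 of them.

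Values are CPM, the counts of a gene scaled to the TMM-adjusted library size, and changes are log2 ratios with their standard error (SE) from edgeR's quasi-likelihood test. Adjusted p values are Benjamini-Hochberg values over all genes tested, with a threshold of 0.05. Total counts were 15356919 to 27148190 per library. Per kilobase of exon (RPKM), the levels of the genes spanned from a median over the 12 libraries of 4.30 for Utp20, a small subunit factor, to 265.8 for Npm1, the chaperone nucleophosmin. Ncl, the RNA-binding protein nucleolin, followed with 85.7, and Nhp2, a core protein of box H/ACA complexes, with 75.6. All 38 genes were thus measured well above 0 in every library, the lowest value being 2.72 RPKM for Utp20.

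**Figure D1:**
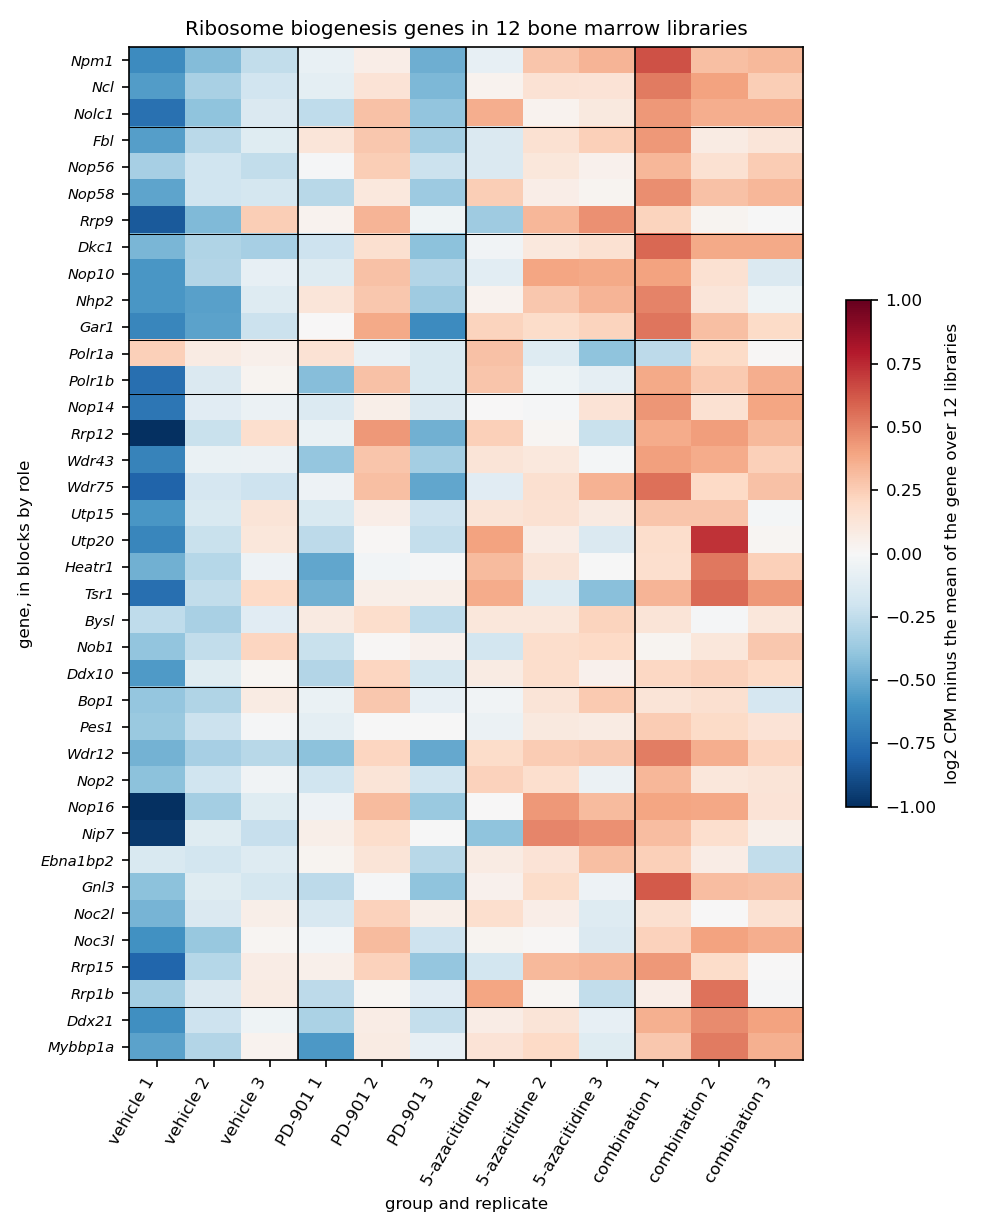
Log2 CPM of each of the 38 genes (rows, in blocks by role) in each of the 12 libraries (columns), minus the mean of the gene over the 12 libraries. The vehicle columns are mostly blue (lower) and the combination columns mostly red (higher); vehicle replicate 1 was the lowest of the 12 libraries for 32 of the 38 genes.

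The group means stood in a shared order. The vehicle mean was the lowest of the 4 for 37 of 38 genes, and the combination mean the highest for 30, while the 5-azacitidine mean was the highest for 7. For 27 genes the means rose in the order vehicle, PD-901, 5-azacitidine, combination. The exception at the low end was Polr1a, the largest subunit of RNA polymerase I, whose vehicle mean was the highest. The summed level of the 38 genes was 2930, 3478 and 3907 CPM in the vehicle libraries and 3847, 4682 and 3424 CPM with PD-901. It was 4394, 4721 and 4625 CPM with 5-azacitidine and 5677, 5238 and 4977 CPM with the combination. In this sum all 3 combination libraries stood above the 9 others, while the PD-901 libraries overlapped those of vehicle. Genes with high levels weigh most in a sum. The median log2 level of the 38 genes was 6.117, 6.316 and 6.027 in the combination libraries. It was 6.107, 6.057 and 5.933 with 5-azacitidine and at most 6.036 with PD-901, so by the median the combination overlapped both.

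The spread within a group was also shared between the genes. Vehicle replicate 1 was the lowest library of its group for 35 genes and vehicle replicate 3 the highest for 32. PD-901 replicate 2 was the highest of its group for 34 genes. Combination replicate 1 was the highest of the 12 libraries for 19 genes and combination replicate 2 for 9. The 38 values of a library are therefore not independent of each other, and counts of genes in 1 direction describe the list and are no test.

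**Figure D2:**
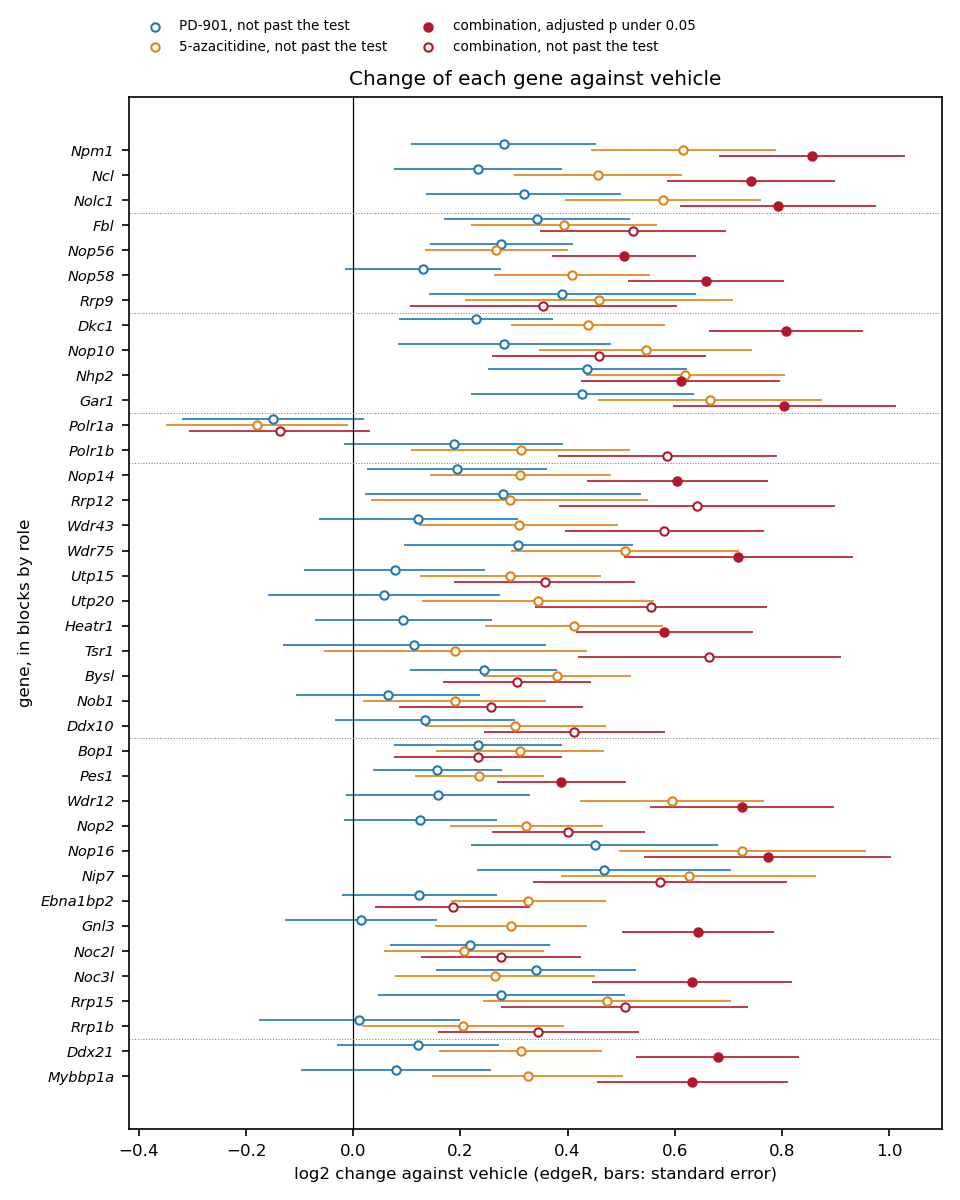
Change of each of the 38 genes against vehicle on the log2 scale (edgeR), with the bar giving 1 SE on either side; filled points had an adjusted p under 0.05. Filled points occur only for the combination (18 genes), and all points but those of Polr1a lie to the right of 0.

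The first question is how the 38 genes stood after both agents together. With the combination 18 of 38 genes (47.4%) were higher than with vehicle by edgeR's test and 0 were lower, where 5.78% of all genes tested were higher and 7.97% lower. The 38 log2 changes ran from -0.14 to 0.86 with a median of 0.58, against a median of 0.01 over all genes tested, and 37 were above 0. In 27 of the 38 genes the 3 combination libraries all lay above the 3 vehicle libraries, which held for 16.1% of all genes tested (15.9% in the other direction). For 9 genes, Ncl, Nolc1, Nop58, Dkc1, Nop14, Pes1, Gnl3, Ddx21 and Mybbp1a, the 3 combination libraries lay above all 9 other libraries, as for 3.54% of all genes tested.

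All 3 chaperone and scaffold genes rose, with a median change of 0.79. Npm1 (chr11:33152287-33163206, minus strand) had 459, 525 and 599 CPM in the vehicle libraries, 674, 743 and 506 CPM with PD-901, 670, 858 and 898 CPM with 5-azacitidine and 1105, 873 and 887 CPM with the combination. Every combination library was above every vehicle and PD-901 library, while 1 of the 5-azacitidine libraries lay among those of the combination. The mean rose from 527.5 ± 69.9 CPM (SD, n = 3) with vehicle to 955 ± 129.7 CPM with the combination, a log2 change of 0.86 (SE 0.17, edgeR adjusted p = 0.0066). Ncl changed by 0.74 (SE 0.16, edgeR adjusted p = 0.0080) and Nolc1, which escorts snoRNA complexes, by 0.79 (SE 0.18, edgeR adjusted p = 0.011).

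Of the 4 box C/D proteins Nop56 and Nop58, the paired scaffold of the complex, rose. Nop58 (chr1:59684971-59719044, plus strand) had 84.7, 106 and 108 CPM with vehicle, 100.7, 131 and 94.8 CPM with PD-901, 145, 128 and 124 CPM with 5-azacitidine and 168, 149 and 154 CPM with the combination. The combination libraries did not overlap any other group, and the log2 change against vehicle was 0.66 (SE 0.15, edgeR adjusted p = 0.0097). Nop56 changed by 0.51 (SE 0.13, edgeR adjusted p = 0.022). Fbl, the methyltransferase fibrillarin, had a change of 0.52 (SE 0.17) that did not pass, with an edgeR adjusted p of 0.057. Rrp9, a protein of the U3 snoRNA complex, had the highest p of this role. It had 17.7, 23.3 and 37.6 CPM with vehicle, 32.5, 40.1 and 30.8 CPM with PD-901, 24.8, 39.9 and 43.5 CPM with 5-azacitidine and 36.8, 32.3 and 31.6 CPM with the combination. The vehicle libraries alone spanned more than the combination libraries, and the change of 0.35 (SE 0.25) had an edgeR adjusted p of 0.40.

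Among the box H/ACA proteins Dkc1, Nhp2 and Gar1 rose and Nop10 did not pass. Dkc1 (chrX:75095854-75109777, plus strand), the pseudouridine synthase dyskerin, had the lowest p of the 38 genes. It had 74.3, 82.8 and 81.2 CPM with vehicle, 88.3, 114 and 77.1 CPM with PD-901, 99.5, 110 and 114 CPM with 5-azacitidine and 152, 133 and 133 CPM with the combination. The combination libraries stood clear of the 9 others, and the log2 change was 0.81 (SE 0.14, edgeR adjusted p = 0.0038). Gar1 changed by 0.80 (SE 0.21, edgeR adjusted p = 0.02) and Nhp2 by 0.61 (SE 0.19, edgeR adjusted p = 0.040). Nop10, the smallest core protein of the complex, had 28.5, 34.9 and 40.3 CPM with vehicle, 39.1, 52.3 and 34.9 CPM with PD-901, 39.8, 56.1 and 55.4 CPM with 5-azacitidine and 56.5, 47.4 and 38.7 CPM with the combination. The lowest combination library lay below the highest vehicle library, and the change of 0.46 (SE 0.20) had an edgeR adjusted p of 0.15.

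Neither subunit of RNA polymerase I passed the test. Polr1b (chr2:129100995-129126594, plus strand) had 27.7, 42.1 and 47.3 CPM with vehicle, 34.6, 57.2 and 41.8 CPM with PD-901, 56.5, 45.3 and 43.8 CPM with 5-azacitidine and 60.5, 55.6 and 59.8 CPM with the combination. The combination libraries were above those of vehicle, which were widely spread, and the change of 0.59 (SE 0.20) had an edgeR adjusted p of 0.070. Polr1a (chr6:71909053-71984935, plus strand) had 96.4, 86.6 and 84.7 CPM with vehicle, 90.2, 77.7 and 73.5 CPM with PD-901, 100.1, 74.7 and 61.9 CPM with 5-azacitidine and 67.9, 93.1 and 82.4 CPM with the combination. The 4 groups overlapped, and the change of -0.14 (SE 0.17, edgeR adjusted p = 0.68) was the only one of the 38 below 0.

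In small subunit assembly 3 of 11 genes rose, Nop14, Wdr75 and Heatr1, and the 11 changes had a median of 0.58. Nop14 (chr5:34638536-34660148, minus strand), a component of the small subunit processome, had 24.1, 36.9 and 38.3 CPM with vehicle, 36.3, 41.5 and 36.1 CPM with PD-901, 39.96, 39.6 and 44.0 CPM with 5-azacitidine and 54.3, 44.5 and 52.5 CPM with the combination. The combination libraries lay above all others, by a narrow margin over the highest 5-azacitidine library, and the change was 0.60 (SE 0.17, edgeR adjusted p = 0.028). Wdr75 and Heatr1 belong to the processome subcomplex that also takes part in transcription of the ribosomal DNA. They changed by 0.72 (SE 0.21, edgeR adjusted p = 0.036) and 0.58 (SE 0.17, edgeR adjusted p = 0.031). Wdr43 and Utp15 are of the same subcomplex. Wdr43 changed by 0.58 (SE 0.19) and lay just outside the threshold, and Utp15 changed by 0.36 and did not pass. Tsr1, Rrp12 and Utp20 had changes of 0.66, 0.64 and 0.56 with larger SEs of 0.25, 0.26 and 0.22 and did not pass. Nob1, the endonuclease of the last cut of the small subunit RNA, had the highest p of the role. It had 32.4, 35.9 and 49.6 CPM with vehicle, 36.6, 43.0 and 43.8 CPM with PD-901, 37.5, 48.1 and 48.9 CPM with 5-azacitidine and 43.5, 46.0 and 51.5 CPM with the combination. All 4 groups overlapped, and the change of 0.26 (SE 0.17) had an edgeR adjusted p of 0.37. The other genes of this role, Bysl and Ddx10, had changes of 0.31 and 0.41 and did not pass.

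In large subunit assembly 5 of 12 genes rose, Gnl3, Wdr12, Nop16, Noc3l and Pes1, and the 12 changes had a median of 0.45. Gnl3 (chr14:31012433-31019152, minus strand), the nucleolar GTPase nucleostemin, had 64.1, 78.3 and 75.5 CPM with vehicle, 71.2, 84.4 and 64.5 CPM with PD-901, 87.7, 96.9 and 82.5 CPM with 5-azacitidine and 130.3, 106 and 104 CPM with the combination. Vehicle and PD-901 covered nearly the same range, 5-azacitidine lay above vehicle, and the combination lay above all 3. The change against vehicle was 0.64 (SE 0.14, edgeR adjusted p = 0.0096).

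Pes1, Bop1 and Wdr12 form the PeBoW complex, which is needed to process the large subunit RNA. Wdr12 changed by 0.73 (SE 0.17, edgeR adjusted p = 0.013) and Pes1 by 0.39 (SE 0.12, edgeR adjusted p = 0.044), while Bop1, at 0.23 (SE 0.16, edgeR adjusted p = 0.38), did not pass. Whether the 3 differ from each other was not tested. Nop16 changed by 0.77 (SE 0.23, edgeR adjusted p = 0.037) and Noc3l by 0.63 (SE 0.19, edgeR adjusted p = 0.036). Ebna1bp2 had the highest p of the role. It had 74.5, 73.0 and 75.7 CPM with vehicle, 84.4, 90.5 and 68.2 CPM with PD-901, 87.4, 90.8 and 101.6 CPM with 5-azacitidine and 97.4, 86.9 and 69.5 CPM with the combination. The vehicle libraries were nearly equal, the combination libraries lay on both sides of them, and the change of 0.19 (SE 0.14) had an edgeR adjusted p of 0.47. Nop2, an RNA methyltransferase, changed by 0.40, and Nip7, Rrp15, Rrp1b and Noc2l by 0.57, 0.51, 0.35 and 0.28, none of which passed.

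Both nucleolar regulators of transcription rose. Ddx21 (chr10:62580251-62602281, minus strand), an RNA helicase, had 123, 163 and 182 CPM with vehicle, 151, 198 and 160 CPM with PD-901, 198, 206 and 177 CPM with 5-azacitidine and 240.1, 261 and 249 CPM with the combination. The combination libraries were above all others, and the change was 0.68 (SE 0.15, edgeR adjusted p = 0.0099). Mybbp1a, a Myb-binding protein of the nucleolus, changed by 0.63 (SE 0.18, edgeR adjusted p = 0.029).

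**Figure D3:**
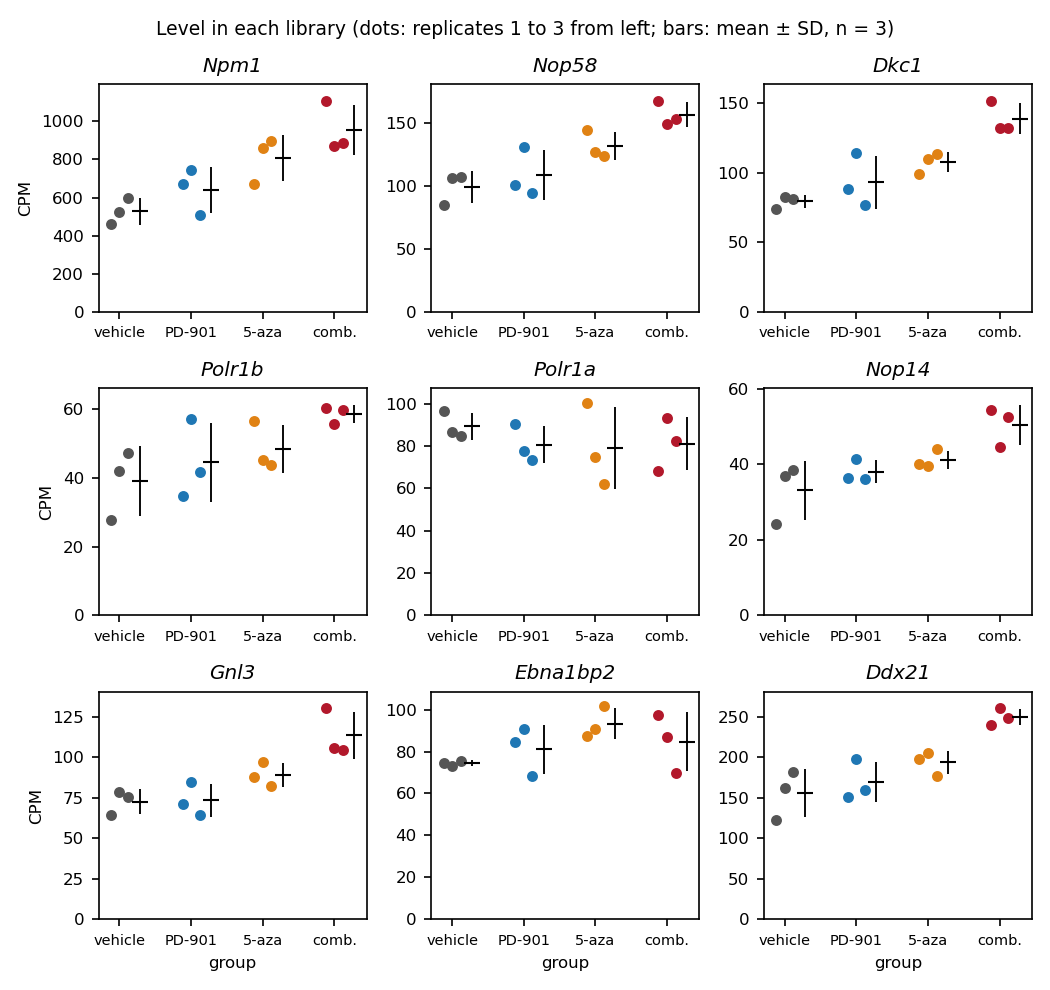
Level in CPM of 9 of the genes in each library, by group; dots are replicates 1 to 3 from left to right and the bar is the mean ± SD (n = 3). For Nop58, Dkc1, Nop14, Gnl3 and Ddx21 the 3 combination dots lie above all 9 others, while the groups overlap for Polr1a.

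These calls rest on small groups. When 1 library was left out in turn, the call against vehicle held in all 12 fits for Npm1, Ncl, Dkc1 and Ddx21, in 11 for Nolc1 and Nop58, and in 2 for Pes1. The number of genes higher was 4 without vehicle replicate 1, where 1.48% of all genes tested were higher. It was 6 without combination replicate 1 (1.51% of all genes), 9 without vehicle replicate 2 (3.09%) and 10 without combination replicate 3 (2.08%). It was at most 21, without vehicle replicate 3 (3.8%), and 18 with all libraries (5.78%).

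Libraries also differed in ways that moved with the groups. Lyz2, a myeloid gene and the locus that drives the Cre, was lowest in 4 libraries, with 172 and 147 CPM in vehicle replicates 1 and 2 and 44.9 and 55.9 CPM in combination replicates 1 and 2. Without these 4 libraries each of the 2 groups had 1 library left, whose spread was taken from the other groups. In that fit 0 of the 38 genes passed against vehicle by edgeR (1 at an unadjusted p under 0.05), with a median change of 0.25, while 321 of all genes were higher and 349 lower. Xist, which is transcribed from the inactive X chromosome of females, was above 100 CPM in 3 of 3 vehicle, 2 of 3 PD-901, 1 of 3 5-azacitidine and 0 of 3 combination libraries. With Xist above or below 100 CPM as a covariate, 0 of the 38 genes passed in edgeR (24 at an unadjusted p under 0.05) and 0 of all genes tested, while the median change of the 38 was 0.67. By this measure the vehicle and combination groups were fully separated, so sex and treatment cannot be told apart between these 2 groups alone.

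Markers of marrow cell types and of the cell cycle also differed between the groups. Between combination and vehicle 27 of 28 S phase and DNA replication genes rose (median change 0.67), and so did 16 of 17 erythroid marker genes (1.39) and 6 of 9 markers of primary granules, which early neutrophil precursors make (0.72). In the same comparison 8 of 12 mature neutrophil markers fell (median change -1.67), as did 7 of 11 monocyte (-0.94), 10 of 12 dendritic cell (-1.50) and 13 of 14 B lineage markers (-1.79). Of the T and NK cell markers 1 of 10 fell, and 1 of 11 stem and progenitor markers. Over all genes tested 5.78% rose and 7.97% fell in this comparison by edgeR. Summed over its list, the erythroid level was 2100 to 3457 CPM with vehicle and 3334 to 9952 CPM with the combination, and the mature neutrophil level 15800 to 31360 and 10420 to 13810 CPM. The S phase sum was 3847 to 4470 CPM with vehicle and 5576 to 6968 CPM with the combination, and the B lineage sum 558 to 620 and 115 to 289.6 CPM. Mitochondrial genes took 1.75 to 1.81% of the counts with the combination, and between 1.01 and 1.73% elsewhere. The part of these differences in the levels of the ribosome biogenesis genes was not tested.

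**Figure D4:**
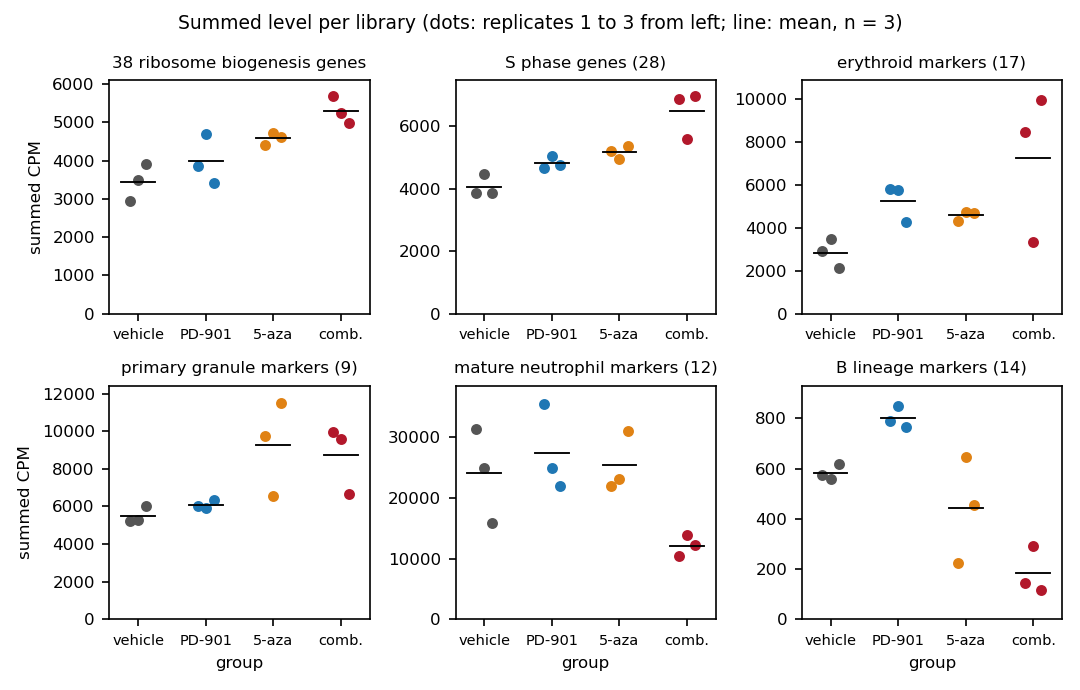
Summed CPM per library of the 38 genes and of 5 other gene lists, by group; dots are replicates 1 to 3 from left to right and the line is the group mean (n = 3). The combination dots lie apart from the vehicle dots in every panel but that of the erythroid markers, where the 2 groups overlap between 3334 and 3457 CPM.

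With PD-901 alone no change of the 38 genes passed the test. By edgeR 0 of 38 passed, as did 0% of all genes tested. An unadjusted p under 0.05 was found for 1 of the 38, and over all 17475 genes for 473 higher and 380 lower. DESeq2 and limma-voom called 0 of the 38. Of all genes DESeq2 called 2 higher and 3 lower, and limma-voom 0. The changes had a median of 0.21 and ran from -0.15 to 0.47, with 37 above 0. The libraries of the groups did not overlap for 1 gene, Nip7, a large subunit factor, against 6.83% of all genes in this direction and 5.93% in the other. Nhp2 (chr11:51619735-51623714, plus strand) had the lowest p, with 54.9, 56.5 and 75.1 CPM with vehicle, 89.3, 99.1 and 64.4 CPM with PD-901, 84.0, 98.8 and 103.8 CPM with 5-azacitidine and 115.9, 89.4 and 79.7 CPM with the combination. One PD-901 library fell among those of vehicle, and the change was 0.44 (SE 0.19, edgeR adjusted p = 0.96). Gnl3, which rose with the combination, had a change of 0.02 (SE 0.14) with PD-901.

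With 5-azacitidine alone the changes were larger but did not pass the correction either. By edgeR 0 of 38 passed, against 0.00572% of all genes higher and 0% lower. An unadjusted p under 0.05 was found for 17 of the 38, and over all 17475 genes for 1412 higher and 1261 lower. DESeq2 called 2 of the 38 higher, where it called 1.67% of all genes higher. For limma-voom the count was 0 of the 38, with 2 of all genes higher and 0 lower. The median change was 0.33 (range -0.18 to 0.73), and 37 of 38 were above 0. In 18 of the 38 genes the 5-azacitidine libraries lay above those of vehicle, which held for 10.8% of all genes tested (9.77% in the other direction). Npm1 had the lowest p, with a change of 0.62 (SE 0.17, edgeR adjusted p = 0.14), and its 5-azacitidine libraries, given above, all exceeded the vehicle libraries. Wdr12, Nhp2 and Gar1 followed with 0.60, 0.62 and 0.67 (SE 0.17, 0.19 and 0.21). The 3 comparisons with vehicle share the vehicle libraries, so a low vehicle library raises the changes in all of them.

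The comparisons of the combination with each single agent set no vehicle mean against another, although the vehicle libraries entered the filter and the estimate of the spread. Against PD-901 4 of 38 genes (10.5%) were higher and 0 lower by edgeR, where 1.69% of all genes were higher and 5.12% lower. These were Gnl3 with a change of 0.63 (SE 0.14, edgeR adjusted p = 0.016), Dkc1 with 0.58 (SE 0.14, edgeR adjusted p = 0.025), Ddx21 with 0.56 (SE 0.15, edgeR adjusted p = 0.037) and Nop58 with 0.53 (SE 0.15, edgeR adjusted p = 0.041). The median of the 38 was 0.33 with 36 above 0, and 13 genes did not overlap, against 12.7% of all genes in this direction and 15% in the other. The 4 calls depended on single libraries, and the share of all genes tested that were higher, given in brackets, also changed. Without PD-901 replicate 1 (0.188%), PD-901 replicate 3 (0.54%) or combination replicate 1 (0.318%) 0 of the 38 genes passed. The count was 1 without combination replicate 3 (0.365%), 2 without vehicle replicate 2 (0.879%) and 8 without PD-901 replicate 2 (0.701%). With Lyz2 as a covariate the count was also 0 (0.0687%), with 10 of the 38 at an unadjusted p under 0.05. Without the 4 libraries lowest in Lyz2, which left 1 combination library, the median change of the 38 was 0.24.

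Against 5-azacitidine 0 of 38 genes passed by edgeR, where 0.252% of all genes were higher and 1.07% lower. An unadjusted p under 0.05 was found for 3 of the 38, and over all 17475 genes for 1174 higher and 1582 lower. DESeq2 and limma-voom called 0 of the 38. Over all genes DESeq2 made 288 calls upward and 760 downward. With limma-voom these counts were 31 and 158. The median change of the 38 was 0.15, with 31 above 0. For 14 of them the libraries did not overlap, against 9.1% of all genes in this direction and 9.54% in the other. Dkc1 had the lowest p, with a change of 0.37 (SE 0.14, edgeR adjusted p = 0.22), and Gnl3 and Ddx21 followed with 0.35 (SE 0.14) and 0.37 (SE 0.15). For each of these 3 genes the combination libraries all lay above those of 5-azacitidine.

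Whether the combination differs from the sum of the single effects on the log2 scale was tested with an interaction term. By edgeR 0 of 38 genes departed from additivity, as did 0% of all genes tested in either direction. An unadjusted p under 0.05 was found for 0 of the 38, and over all 17475 genes for 785 higher and 1086 lower. DESeq2 and limma-voom also called 0 of the 38. Of all genes DESeq2 called 75 higher (0.429%) and 213 lower, and limma-voom 0. The departures had a median of -0.02 and ran from -0.52 for Nip7 to 0.36. Nhp2 had the lowest p, at -0.45 (SE 0.26, edgeR adjusted p = 0.57), and Gnl3 followed at 0.34 (SE 0.20). The size of departure that 3 mice a group could show was not tested. A joint edgeR test for any difference among the 4 groups called 7 of the 38 genes, against 6.96% of all genes tested. These were Dkc1 (edgeR adjusted p = 0.017), Npm1, Gnl3, Nop58, Ncl, Wdr12 and Ddx21 (edgeR adjusted p = 0.037).

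A second list of 116 ribosome biogenesis genes outside the 38 held further polymerase I factors, assembly factors and the exosome, the RNase complex that trims ribosomal RNA. Of 115 tested, 21 (18.3%) were higher and 0 lower with the combination than with vehicle by edgeR, against 5.78% and 7.97% of all genes tested. The median change was 0.33, with 102 above 0. By role the 21 genes were 3 of 14 polymerase I genes, 8 of 46 of small subunit assembly, 7 of 45 of large subunit assembly and 3 of 10 of the exosome. Dis3, a catalytic RNase of the exosome, had the lowest p, with 37.4 ± 4.27 CPM (SD, n = 3) with vehicle and 66.2 ± 1.77 CPM with the combination, a change of 0.83 (SE 0.16, edgeR adjusted p = 0.0051). Polr1c, a subunit that RNA polymerases I and III share, changed by 0.70 (SE 0.16, edgeR adjusted p = 0.0099), Ftsj3, an RNA methyltransferase, by 0.62 (SE 0.14, edgeR adjusted p = 0.0096) and Wdr46, of the small subunit processome, by 0.60 (SE 0.14, edgeR adjusted p = 0.012). Against PD-901 2 of the 115 (1.74%) were higher, near the 1.69% of all genes. In either single-agent comparison with vehicle, and in the combination against 5-azacitidine, 0 passed. An unadjusted p under 0.05 was found for 4 of the 115 with PD-901 (all 17475 genes: 473 higher, 380 lower). For 5-azacitidine it was found for 28 (all genes: 1412 and 1261), and for the combination against 5-azacitidine for 10 (all genes: 1174 and 1582).

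The Myc network holds the factors that bind the E-box and their relatives. With the combination 0 of 11 genes were higher and 3 lower than with vehicle by edgeR, where 5.78% of all genes tested were higher and 7.97% lower. The 3 were Mxd1 (-1.02, SE 0.24, edgeR adjusted p = 0.013) and Mxd4 (-0.60, SE 0.15, edgeR adjusted p = 0.018), repressors that compete with Myc for Max, and Mycl (-1.54, SE 0.41, edgeR adjusted p = 0.022), a relative of Myc. Myc itself had 107.5 ± 21.8 CPM (SD, n = 3) with vehicle, 108.1 ± 11.9 CPM with PD-901, 123.4 ± 10.4 CPM with 5-azacitidine and 131.3 ± 8.53 CPM with the combination. Its change of 0.29 (SE 0.15, edgeR adjusted p = 0.23) did not pass. Max, the shared partner, had a change of -0.52 (SE 0.17, edgeR adjusted p = 0.053).

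Some counts are uncertain because genes share sequence or position. A near-identical stretch in another gene was found for 14 of the 38 genes, among them Wdr12, Nop58 and Npm1, and the sources used here do not say how reads with several matches were counted. At least 5% of the exon bases of 5 genes, Tsr1, Noc2l, Bysl, Nop56 and Nop14, lie in exons of another gene, most for Tsr1, with 32.3%, the largest overlap being with Srr. For Nop56, with 8.1%, the other genes include 4 snoRNA genes within it on the same strand. Reads from such bases cannot be told apart here by gene.

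**Figure D5:**
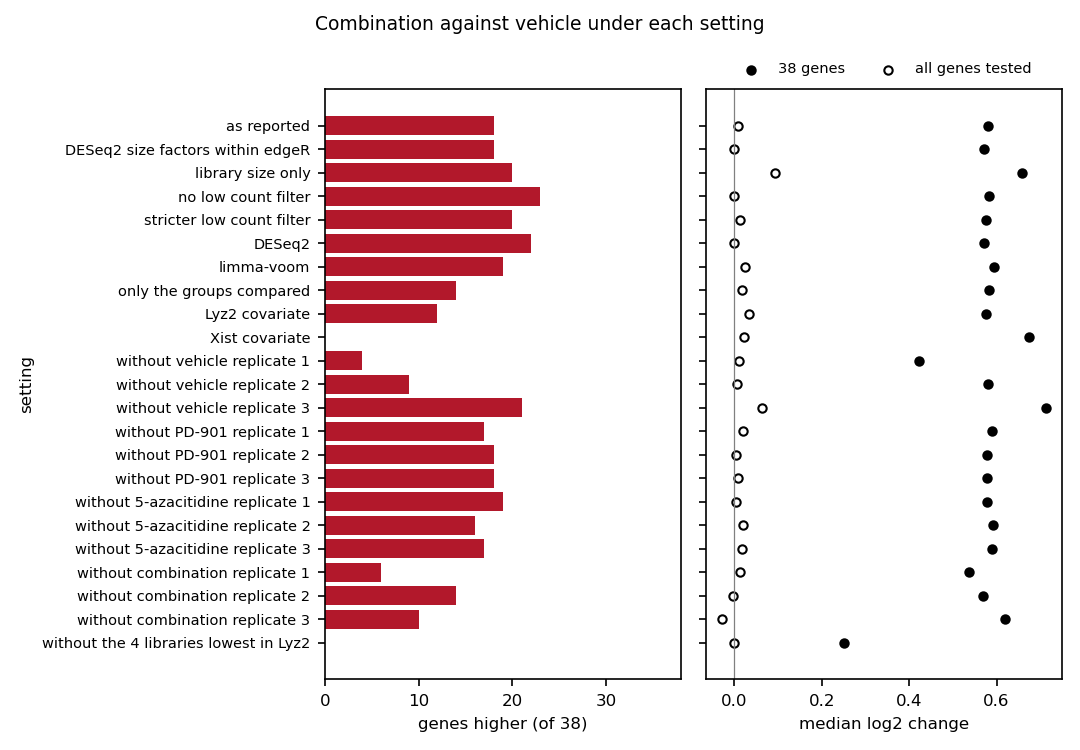
Left, number of the 38 genes higher with the combination than with vehicle (of 38) under each setting of the analysis; right, median log2 change of the 38 genes (filled) and of all genes tested (open). The count falls from 18 as reported to 0 with the Xist covariate or without the 4 libraries lowest in Lyz2, while the median of the 38 stays between 0.25 and 0.71.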

How the data were processed

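Total RNA of bone marrow from 12 mice gave paired-end HiSeq4000 libraries, from RNA with an integrity number above 7, per the labels. In the deposited table each value is a raw, unscaled count of reads for 1 gene in 1 mouse. It was made with STAR 2.7.2a, Subread 1.6.5 (featureCounts) and bcl2fastq on build mm10, per the submitters' processing notes. The annotation release and the handling of strand and of multiply matching reads were not given in the sources used here. Replicates are separate mice per the labels, and their numbers, given in accession order, only name them. No library looked like a copy of another of its group, with a chi-square of 19.9 to 71.2 per degree of freedom between pairs.

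Counts were fitted in R 4.3.3 with edgeR 4.0.16: filterByExpr (minimum count 10, minimum total 15), TMM, and a robust quasi-likelihood fit of the 4 group means to the 12 libraries (8 residual degrees of freedom). Tests were two-sided and adjusted over the 17475 genes tested. The fit was also run on simulated counts drawn separately for each gene. These held no differences between libraries that genes share, so they cannot show how the tests behave with such differences. CPM and RPKM were computed from the counts, RPKM with the exon length in the table. SEs are those implied by the F statistic. Alternatives were DESeq2 1.42.0, limma-voom 3.58.1, other scalings and filters, fits of the groups compared, covariates and leaving out libraries.

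The 38 genes and all lists were chosen with earlier results of these data known. Values per library are given, in each role, for the gene with the lowest p in the combination against vehicle and, in roles of 4 or more, for the one with the highest p, and for the lowest p in each other comparison; Polr1a was added because its change was the only one below 0. Of the second ribosome biogenesis list and the Myc network up to 4 genes with the lowest p were named, and Myc. Gene coordinates are those deposited with the counts. Of the 56350 identifiers, 55094 occur in GENCODE M21, where coordinates were compared only for the 38 genes. The span was the same there for 37 of them, and Noc2l was the exception. Depth sets the precision of low genes, and the common coefficient of variation between mice was 0.328 in edgeR.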

Additional observations from a re-analysis of the deposited data

How the results depend on the processing

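No paired analysis was possible because the replicate numbers were given in accession order and only name the mice. For the combination against vehicle, 18 genes were higher as reported (5.78% of all genes tested) and 18 with DESeq2 size factors (5.63%). There were 20 by library size only (8.15%), 23 without a filter on low counts (3.11%) and 20 with a stricter one (8.6%). DESeq2 gave 22 (8.33%) and limma-voom 19 (5.77%). With only the 2 groups in the fit there were 14 (4.78%), and with a Lyz2 covariate 12 (3.89%). The count was 0 with the Xist covariate and, in an analysis chosen after seeing the data, without the 4 libraries lowest in Lyz2, and 4 to 21 over the leave-one-out fits. For the combination against PD-901, 4 genes as reported became 7 by library size only, with the stricter filter and with limma-voom. The count was 8 without a filter, 9 with DESeq2, and 2 with only the groups compared and with the Xist covariate. It was 0 with the Lyz2 covariate and 0 to 8 in the leave-one-out fits. Without the 4 libraries 1 combination library was left, and the median change of the 38 was 0.24. Of all genes, 1.69% were higher against PD-901 as reported, 3.32% by library size only, 3.02% with the stricter filter and 2.25% with limma-voom. The share was 1.46% without a filter, 4.37% with DESeq2 and 1.81% with only the groups compared. It was 0.195% with the Xist and 0.0687% with the Lyz2 covariate. For 5-azacitidine against vehicle, 0 became 6 without a filter (0.653% of all genes) and 2 with DESeq2 (1.67%). For any difference among the groups, 7 (against 6.96% of all genes) became 15 without a filter and 0 to 9 in the leave-one-out fits. The share of all genes was not computed for this joint test in the other settings. These counts therefore cannot be set against a shift of all genes. In none of these settings was any of the 38 genes called lower, and no called change reversed; the causes were not tested. Scaling by library size only raised the median of all genes from 0.01 to 0.11 against PD-901 and from 0.00 to 0.13 against 5-azacitidine, and turned the split of all calls against vehicle from 1010 higher and 1393 lower to 1425 and 1175. The smallest library held 15356919 counts, and 3 mice a group limit what could be called.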

Other observations

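The ribosomal proteins, the products that the 38 genes help to assemble, were summed over 83 genes as a description with no test. Their sum was 36090 to 45650 CPM with vehicle, 40670 to 49330 CPM with PD-901, 45440 to 59800 CPM with 5-azacitidine and 42850 to 58170 CPM with the combination. The highest library belonged to 5-azacitidine, and the combination libraries overlapped those of vehicle, whereas for the summed level of the 38 biogenesis genes they did not.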
